A study of Mus musculus with 26 samples.

Results

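Bone morphogenetic proteins (BMPs) and the secreted proteins that hold them back were followed through the mesenchyme of the fetal mouse reproductive tract. The set comprised 9 genes, found by symbol in both count tables, of 41442 gene rows in each. It held 6 ligands, Bmp2, Bmp3, Bmp4, Bmp5, Bmp6 and Bmp7, and 3 antagonists, Grem1, Nog and Chrdl1. In sorted mesonephric cells Bmp4 and Chrdl1 were lower in females than in males at E16.5, 5.56-fold and 11.3-fold, while Bmp5 and Bmp7 were higher in females, 1.85-fold and 2.26-fold. In the neonatal uterus, Amhr2+ cells held more Bmp2, Bmp3, Bmp7 and Chrdl1 transcript than Gli1+ cells and less Bmp4, Bmp5 and Nog.

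BMPs are secreted dimers of the TGF-beta superfamily that assemble type I and type II serine/threonine kinase receptors. The receptors phosphorylate Smad1, Smad5 and Smad9, which enter the nucleus with Smad4 and switch on targets such as the Id and Msx genes. Noggin (Nog), gremlin (Grem1) and chordin-like 1 (Chrdl1) bind ligands outside the cell and keep them from their receptors. Bmp3 is the atypical ligand of the set and is known to oppose signalling by other BMPs. In reproductive tracts, BMPs from the mesenchyme are known to act on the epithelium of the ducts, and Bmp4 and Bmp7 are known from studies of the epididymis.

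Cells carried a Rosa-Tomato reporter. In one kind of embryo the reporter was switched on by Gli1-CreER, a tamoxifen-dependent recombinase driven by Gli1, a target of hedgehog signalling. In the other it was switched on by Amhr2-Cre, driven by the receptor gene of anti-Müllerian hormone. Per the labels' protocols, dams received 1 mg of tamoxifen intraperitoneally on E12.5 and E13.5. Gli1-CreER therefore marks cells that used Gli1 around those days, and their descendants, whether or not they still use it at collection. The 6 RNA groups, with 3 libraries each, were Gli1+ cells of female mesonephros and of male mesonephros at E14.5, the same at E16.5, and Amhr2+ and Gli1+ cells of female uterus at E19.5. A further 8 ATAC-seq samples of fetal Gli1+ cells, which measure open chromatin, are represented by 1 unified list of 71040 peaks. The labels do not say whether replicates came from separate animals or litters, so p-values measure the spread between these samples, which may be technical.

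Fetal libraries held between 23382983 and 64602477 counts and uterine libraries between 28709191 and 37541045. Levels are given as CPM, the counts of a gene scaled to the effective size of its library. The detection floor of 3 counts lay at 0.0464 to 0.128 CPM in the fetal set and at 0.0799 to 0.104 CPM in the uterine set. These floors cover counting error only. All 10 mesenchymal markers were found in every group. Gli1 itself averaged 184 CPM (SD 0.295, n = 3) in E14.5 females, 228 (SD 17.0) in E14.5 males, 50.7 (SD 2.88) in E16.5 females and 208 (SD 13.3) in E16.5 males. In the uterus, Amhr2 averaged 11.1 CPM (SD 4.31, n = 3) in Amhr2+ cells and 4.10 CPM (SD 0.997) in Gli1+ cells. Gli1 averaged 10.5 CPM (SD 2.62) in Amhr2+ cells and 17.9 CPM (SD 2.85) in Gli1+ cells. The erythroid list summed to between 5.13 and 948 CPM within E14.5 females, where 1 library stood apart.

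The sequences around 2 ligands that took opposite courses by sex, Bmp4 and Bmp5, are shown to tie the counts to their loci. Bmp4 lies on the minus strand of mm10 at chr14:46383520-46390669 and Bmp5 on the plus strand at chr9:75775364-75900310. Bmp2 (plus strand, chr2:133552159-133562885), Bmp7 (minus, chr2:172868012-172940321) and Grem1 (minus, chr2:113746164-113758646) share a chromosome. Bmp3 lies at chr5:98854415-98884396 (plus), Bmp6 at chr13:38345107-38500302 (plus), Nog at chr11:89300638-89302332 (minus) and Chrdl1 at chrX:143285674-143394262 (minus). Each line runs 5′ to 3′ on the strand of the gene, is taken from RefSeq (GRCm38.p6), and has CpG dinucleotides in capitals. The first is the 250 bases upstream of the Bmp4 start at chr14:46390670-46390919, the next the 250 bases upstream of the Bmp5 start at chr9:75775115-75775364. The last is 300 bases at the centre of the widest Bmp4 peak, at chr14:46387323-46387622.
Bmp4 upstream: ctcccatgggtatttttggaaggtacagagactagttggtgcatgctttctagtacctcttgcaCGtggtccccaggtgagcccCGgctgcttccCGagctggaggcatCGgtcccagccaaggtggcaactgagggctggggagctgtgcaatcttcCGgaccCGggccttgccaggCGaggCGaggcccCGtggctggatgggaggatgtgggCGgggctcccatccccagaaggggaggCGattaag
Bmp5 upstream: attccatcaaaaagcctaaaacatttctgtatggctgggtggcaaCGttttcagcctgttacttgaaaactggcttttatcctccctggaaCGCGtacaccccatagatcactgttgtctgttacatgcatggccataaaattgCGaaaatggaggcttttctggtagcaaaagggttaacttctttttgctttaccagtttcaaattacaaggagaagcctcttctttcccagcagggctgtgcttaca
Bmp4 internal peak: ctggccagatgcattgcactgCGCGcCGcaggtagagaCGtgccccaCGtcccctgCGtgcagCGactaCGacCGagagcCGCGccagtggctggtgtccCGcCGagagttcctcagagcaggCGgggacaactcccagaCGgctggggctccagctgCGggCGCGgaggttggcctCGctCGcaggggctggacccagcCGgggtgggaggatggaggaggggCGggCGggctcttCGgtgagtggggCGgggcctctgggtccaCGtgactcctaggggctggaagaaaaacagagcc
The Bmp4 upstream window held 11 CpG dinucleotides and 63.2% G and C, against a median of 6 and 52.4% over 32544 upstream windows of the same length. The Bmp5 window held 4 CpG dinucleotides and 42.8% G and C. The Bmp4 peak window lies in the intron before exon 2 of the longest transcript and just upstream of the start of a shorter annotated Bmp4 transcript, a start that the peak covers. It held 26 CpG dinucleotides and 70.3% G and C. It also overlaps the first exon of an antisense transcript.

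Among the ligands, Bmp4 had the widest sex difference at E16.5. In E16.5 females its 3 libraries read 11.9, 13.5 and 9.65 CPM, and in E16.5 males they read 56.7, 76.8 and 61.5 CPM. The groups lay far apart, with the highest female library well under the lowest male one. At E14.5 the female libraries read 21.8, 22.9 and 24.0 CPM and the male libraries 32.1, 37.3 and 45.6 CPM, again without overlap. In edgeR's quasi-likelihood test the female-over-male log2 fold change of Bmp4 was -0.75 (SE 0.15, adjusted p = 0.00737) at E14.5 and -2.47 (SE 0.15, adjusted p = 4.92e-08) at E16.5. With age the log2 level of Bmp4 fell by 0.97 in females (adjusted p = 0.000232) and rose by 0.76 in males (adjusted p = 0.00145). The interaction of sex and age, the difference between the 2 sex differences, was -1.73 (SE 0.21, adjusted p = 0.000114). These are mixed sorted cells, so fewer cells of a type and less RNA per cell cannot be told apart. Bmp4 overlaps a pair of genes on the other strand, of which the more abundant averaged 97.2 counts per library. The fetal libraries came from a non-stranded kit, so strand cannot separate reads in the overlap, and how such reads were counted is not given in the sources used here.

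Bmp5, which is closely related to Bmp6 and Bmp7, took the opposite course. Its E16.5 female libraries read 26.3, 21.8 and 22.1 CPM against 13.8, 12.6 and 11.7 CPM in E16.5 males. Every E16.5 female library stood above every other fetal library for this gene. At E14.5 the sexes overlapped, at 12.6, 14.9 and 14.8 CPM in females and 15.6, 12.8 and 11.95 CPM in males. The log2 fold change was 0.89 (SE 0.11, adjusted p = 2.65e-05) at E16.5 and 0.08 (95% interval -0.16 to 0.31, adjusted p = 0.802) at E14.5. Bmp5 rose by 0.74 on the log2 scale with age in females (adjusted p = 0.000146). In males its age difference was -0.07 (adjusted p = 0.693), and the sign of that difference turned when E14.5 male replicate 1 or E16.5 male replicate 3 was left out.

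Bmp7, a ligand with known roles in kidney and duct development, fell in both sexes between the ages. The E14.5 libraries read 24.9, 24.4 and 24.3 CPM in females and 28.97, 24.3 and 21.8 CPM in males. At E16.5 they read 18.5, 18.7 and 13.9 CPM in females and 7.14, 8.33 and 7.22 CPM in males. Both sexes lay lower at the later age, and the E16.5 groups did not overlap. Bmp7 fell by 0.53 in females (adjusted p = 0.00287) and by 1.72 in males (adjusted p = 8.75e-08) on the log2 scale. The sex difference at E16.5 was 1.18 (SE 0.12, adjusted p = 3.28e-06), and the interaction was 1.19 (SE 0.17, adjusted p = 0.000282).

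Bmp6 paralleled Bmp4 in direction at E16.5. Its E16.5 female libraries read 8.49, 8.42 and 6.06 CPM and its E16.5 male libraries 21.7, 16.9 and 17.7 CPM. At E14.5 the values were 14.02, 15.0 and 14.9 CPM in females and 17.4, 17.1 and 16.498 CPM in males. The groups did not overlap at either age, although the test was passed only at E16.5, with log2 fold changes of -0.21 (adjusted p = 0.389) and then -1.29 (adjusted p = 1.14e-06). In females the log2 level of Bmp6 fell by 0.94 with age (adjusted p = 3.51e-05). In males the difference was 0.14 (95% interval -0.09 to 0.38, adjusted p = 0.421). Bmp6 shares its 3′ end with the abundant gene Txndc5 on the other strand, which averaged 19184.5 counts per fetal library, so its counts are uncertain.

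Bmp2 was the ligand with the sharpest sex difference at E14.5. Female libraries read 7.65, 8.36 and 9.92 CPM and male libraries 29.4, 28.3 and 27.4 CPM. At E16.5 the gap was narrower, at 10.7, 11.0 and 9.27 CPM in females and 14.52, 20.2 and 16.2 CPM in males, still without overlap. The log2 fold change was -1.71 (SE 0.13, adjusted p = 9.30e-07) at E14.5 and -0.71 (SE 0.12, adjusted p = 0.000388) at E16.5. The interaction was 1.00 (SE 0.17, adjusted p = 0.00136). Bmp2 fell by 0.74 on the log2 scale with age in males (adjusted p = 0.000243), while in females the difference was 0.26 (adjusted p = 0.125).

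Bmp3 had the lowest level per kilobase of the ligands in every fetal group. It read 2.003, 2.31 and 2.21 CPM in females and 3.11, 2.25 and 2.34 CPM in males at E14.5, and 2.89, 3.30 and 2.55 CPM in E16.5 females. The E16.5 males stood apart at 8.25, 7.31 and 6.22 CPM. Bmp3 rose by 1.52 on the log2 scale with age in males (adjusted p = 4.88e-06) and had a female-over-male log2 fold change of -1.31 at E16.5 (SE 0.16, adjusted p = 1.42e-05). In females the age difference was 0.42 with an adjusted p of 0.0684, which became 0.0499 without E16.5 female replicate 3.

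**Figure D1:**
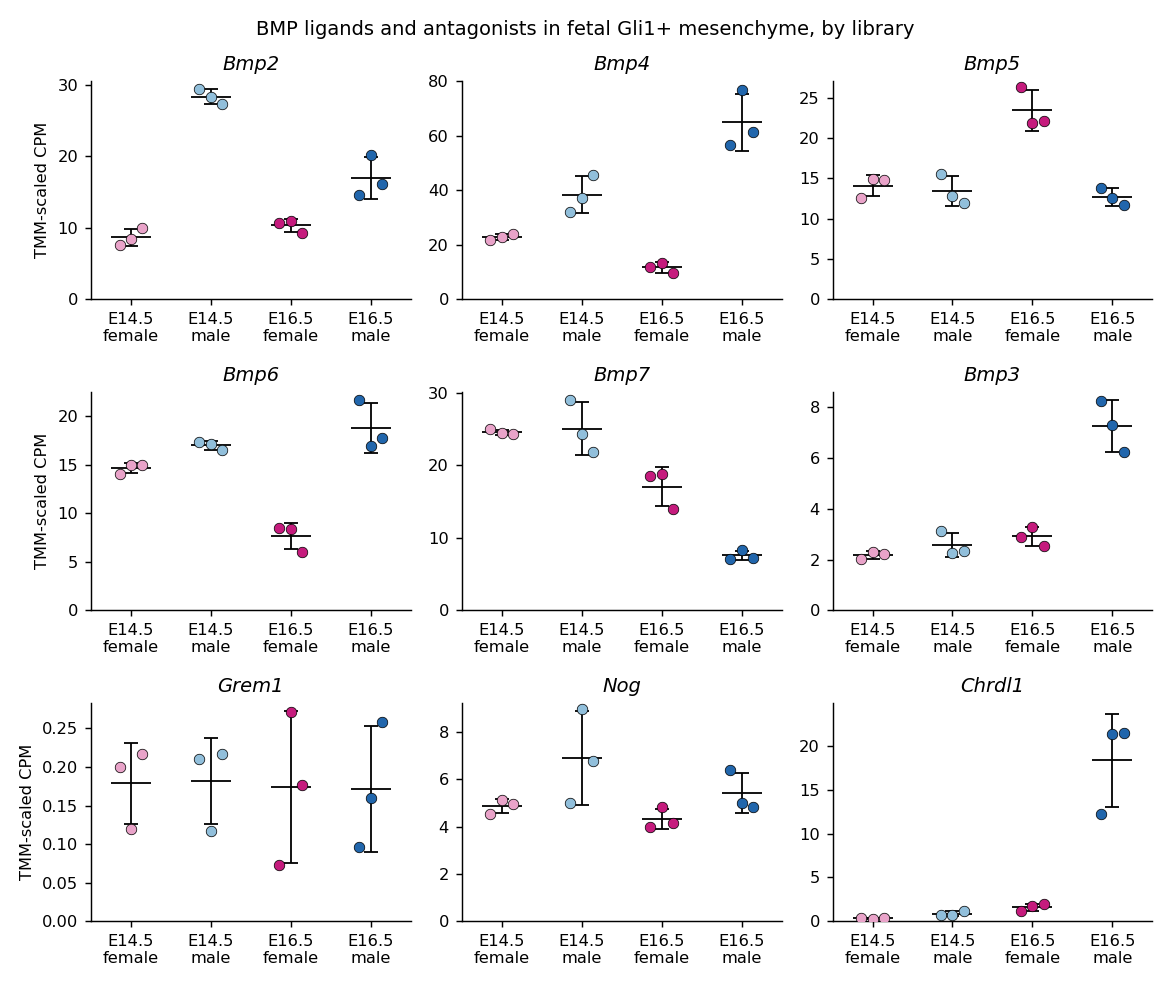
Level of each member in the 12 fetal libraries, as TMM-scaled CPM on axes that start at 0, by age and sex. Points are libraries, horizontal bars are means and error bars are SD of 3 libraries. Bmp4 and Chrdl1 are highest in E16.5 males, at 56.7 to 76.8 and 12.2 to 21.5 CPM, and Bmp5 is highest in E16.5 females, at 21.8 to 26.3 CPM.

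Of the antagonists, Chrdl1, an X-linked gene, moved most. At E14.5 female libraries read 0.401, 0.279 and 0.362 CPM and male libraries 0.757, 0.727 and 1.21 CPM, on 7 to 67 counts. At E16.5 the gene read 1.17, 1.72 and 1.97 CPM in females and 12.2, 21.3 and 21.5 CPM in males, on 48 to 1331 counts. The sexes did not overlap at either age. The female-over-male log2 fold change at E16.5 was -3.50 (SE 0.25, adjusted p = 8.04e-08). At E14.5 it was -1.40 (SE 0.41) with an adjusted p of 0.0565, which ranged from 0.00373 to 0.280 over the alternative settings and fell below 0.05 without E16.5 male replicate 1 (0.0109) or replicate 3 (0.0481), with a replicate block (0.00373), with library-size scaling (0.0340), by DESeq2 (0.00555) and with only the 6 E14.5 libraries (0.0209). Chrdl1 rose by 2.20 with age in females (adjusted p = 0.000350) and by 4.30 in males (adjusted p = 3.13e-08) on the log2 scale. Its interaction of -2.10 (SE 0.52, adjusted p = 0.0182) was lost without E14.5 female replicate 1 (adjusted p = 0.0971) or replicate 3 (adjusted p = 0.0709).

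Nog, which encodes noggin, did not pass the test in any fetal comparison with all libraries. At E14.5 female libraries read 4.54, 5.13 and 4.96 CPM and male libraries 5.004, 8.96 and 6.76 CPM. The E16.5 values were 3.99, 4.82 and 4.17 CPM in females and 6.39, 5.02 and 4.83 CPM in males. The sex difference was -0.52 (95% interval -0.88 to -0.16, adjusted p = 0.122) at E14.5 and -0.32 (95% interval -0.67 to 0.04, adjusted p = 0.217) at E16.5. Without E14.5 male replicate 1, the sex difference at E14.5 (adjusted p = 0.0185) and the age difference in males (adjusted p = 0.0295) passed the test. Grem1 was near the floor throughout the mesonephros, with 3 to 16 counts per library and 0.0734 to 0.271 CPM, and was not tested there.

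**Figure D2:**
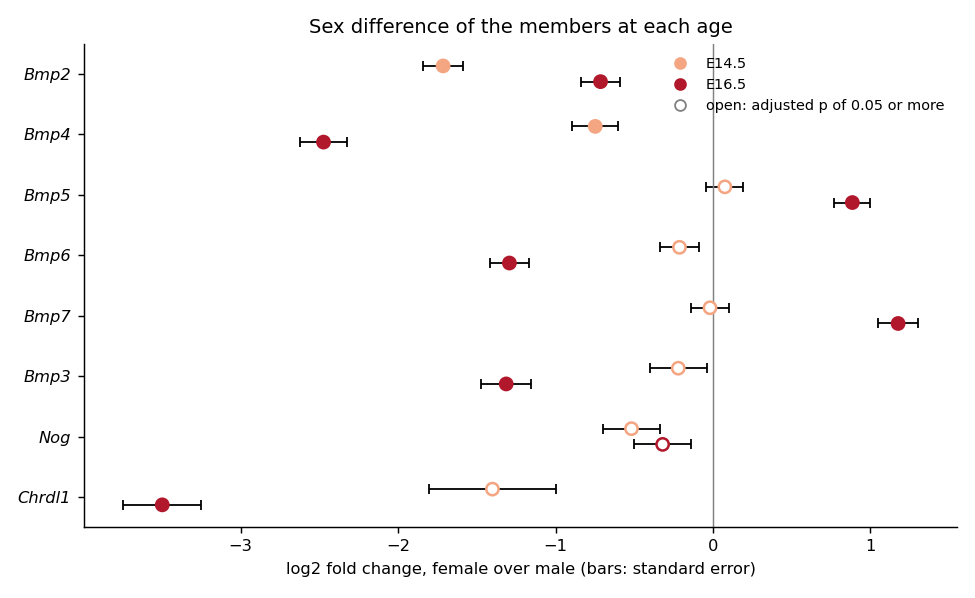
Female-over-male log2 fold change of the 8 tested members at E14.5 (pale) and E16.5 (dark), with bars of 1 standard error and open points where the adjusted p was 0.05 or more. At E16.5 Chrdl1 (-3.50) and Bmp4 (-2.47) lie farthest to the left and Bmp7 (1.18) and Bmp5 (0.89) lie to the right of 0.

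Counted over the set, 2 of 8 tested members passed at E14.5, both lower in females, beside 6.28% of all 17858 genes tested. That background was the least firm of all, since 1121 genes passed with all libraries and between 553 and 686 when any single E14.5 library other than male replicate 1 was left out. At E16.5, 7 of 8 passed, 2 higher and 5 lower in females, beside 27.3% of all genes. The median log2 fold change of the members was -1.004, against 0.01 over all genes. With age, 5 of 8 passed in females (2 up, 3 down) beside 39.6% of all genes, and 5 of 8 in males (3 up, 2 down) beside 23.3%. The members' median log2 age difference was 0.04 in each sex, so no common direction was seen. The interaction passed for 7 of 8 members, all but Nog, beside 10% of all genes. These comparisons share libraries and are not independent of each other.

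The summed level of smooth muscle markers also differed between the fetal groups. All 6 markers of the list were found, none of them at the floor, and their summed level at E14.5 was 302 to 326 CPM in females and 606 to 888 CPM in males. At E16.5 that sum was 465 to 566 CPM in females and 1715 to 2891 CPM in males. Of the members called at that age, Bmp2, Bmp3, Bmp4, Bmp6 and Chrdl1 were in that order, and Bmp5 and Bmp7 in the reverse one. With age in females the sum rose, while Bmp4 fell from a mean of 22.9 to 11.7 CPM. Des, a marker of the list, did not follow, at 204 CPM (SD 3.87) in E16.5 females and 196 CPM (SD 6.88) in E16.5 males. The part of the smooth muscle markers in the sex differences was not tested. Gli1 itself was also lower in E16.5 females, at the levels given above, and its part was not tested either.

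Read per kilobase of exon, which allows levels of different genes to be compared, the make-up of the ligand pool differed between groups. Bmp4 supplied 38.8% (SD 0.302, n = 3) of the summed level of the 6 ligands in E14.5 females and 43.2% (SD 6.25) in E14.5 males. In E16.5 males it supplied 64.7% (SD 3.32), while Bmp7 supplied 4.24% (SD 0.107). In E16.5 females no ligand dominated, with Bmp5 at 28.5% (SD 3.19), Bmp4 at 25.3% (SD 1.95) and Bmp7 at 20.6% (SD 0.971). The Bmp4 and Bmp5 shares overlapped there, at 24.1 to 27.5% and 24.9 to 30.9%. The summed ligand level was 20.5 CPM per kilobase (SD 2.39) in E16.5 females and 44.5 (SD 5.09) in E16.5 males. The 3 antagonists together stood at 0.139 (SD 0.0215) of the ligand level in E16.5 females and 0.134 (SD 0.0116) in E16.5 males. That closeness depends on the length scaling, since without it the ratio was 0.0849 (SD 0.0168) in E16.5 females and 0.187 (SD 0.0340) in E16.5 males. These shares are descriptions and were not tested.

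**Figure D3:**
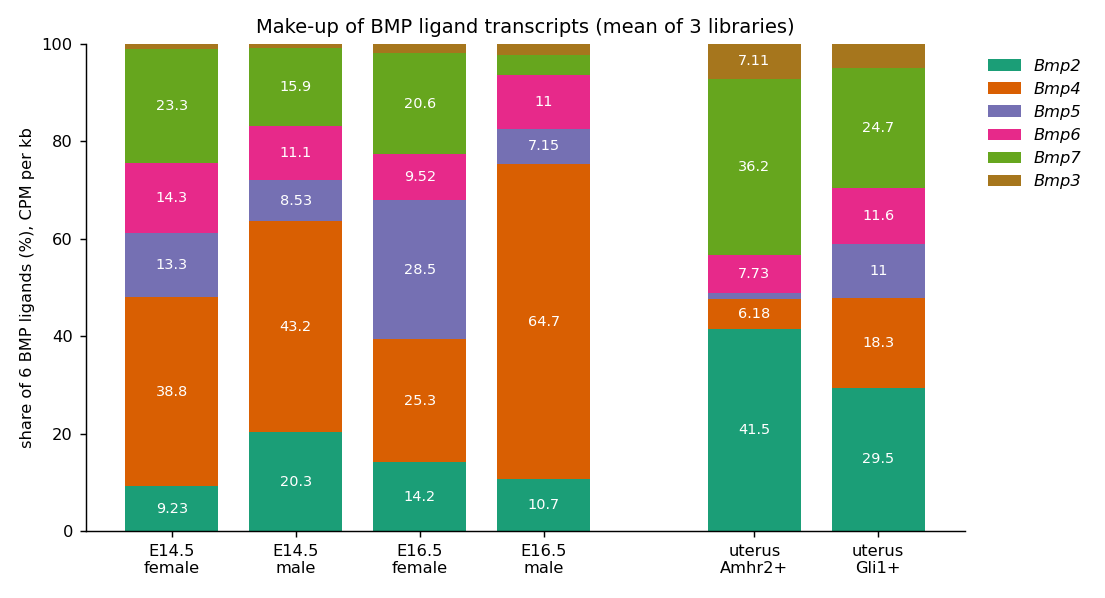
Share of each ligand in the summed level of the 6 ligands, in percent of CPM per kilobase, as the mean of 3 libraries in each of the 6 RNA groups. Bmp4 takes 64.7% in E16.5 males and 25.3% in E16.5 females, and Bmp2 takes 41.5% in uterine Amhr2+ cells.

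The uterine libraries, made with a stranded kit and fitted by themselves, compared Amhr2+ with Gli1+ cells. Of 9 members, 8 passed, 5 higher and 3 lower in Amhr2+ cells, beside 23.9% of all 16195 genes tested. That background was 3866 genes and became 1949 without Amhr2+ replicate 1 and 2521 without Gli1+ replicate 1. Bmp2 read 31.9, 32.6 and 29.4 CPM in Amhr2+ cells and 15.4, 15.5 and 15.9 CPM in Gli1+ cells. Bmp7 read 28.99, 28.2 and 35.5 CPM against 14.7, 15.2 and 14.3 CPM. Both ligands were about equally displaced, with log2 fold changes of 1.005 (SE 0.08, adjusted p = 8.53e-05) and 1.06 (SE 0.10, adjusted p = 0.000274). Bmp3 read 11.7, 11.3 and 10.6 CPM against 6.10, 4.46 and 5.36 CPM, which gave a log2 difference of 1.07 (SE 0.14, adjusted p = 0.00123).

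Bmp5 and Bmp4 were on the Gli1+ side. Bmp5 read 1.399, 1.05 and 1.02 CPM in Amhr2+ cells and 7.32, 8.29 and 4.49 CPM in Gli1+ cells, which put its log2 fold change at -2.52 (SE 0.27, adjusted p = 0.000415). Bmp4 read 3.32, 2.88 and 2.64 CPM against 6.61, 6.65 and 5.24 CPM, which gave -1.06 on the log2 scale (SE 0.17, adjusted p = 0.00294). Neither gene's groups overlapped. A pair of clone-named genes, sparsely counted in the fetal libraries, also overlaps Bmp5. Bmp6 did overlap, at 5.96, 7.17 and 6.06 CPM against 6.64, 7.95 and 5.76 CPM, and its log2 fold change was -0.08 (95% interval -0.39 to 0.23, adjusted p = 0.740).

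All 3 antagonists were measurable in the uterus. Nog read 2.82, 2.16 and 2.20 CPM in Amhr2+ cells and 8.22, 5.69 and 6.42 CPM in Gli1+ cells, with a log2 difference of -1.50 (SE 0.20, adjusted p = 0.00116). Chrdl1 went the other way, at 9.46, 11.1 and 10.03 CPM against 5.001, 5.79 and 5.57 CPM (log2 fold change 0.90, SE 0.13, adjusted p = 0.00164). Grem1 read 2.18, 2.40 and 0.711 CPM against 0.417, 0.681 and 0.663 CPM, so that 1 Amhr2+ library lay just above the Gli1+ range. Its log2 fold change of 1.60 (SE 0.45) had an adjusted p of 0.0355. That call did not survive leaving out Amhr2+ replicate 1 or 2 or any Gli1+ library, where the adjusted p ran from 0.0655 to 0.116.

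**Figure D4:**
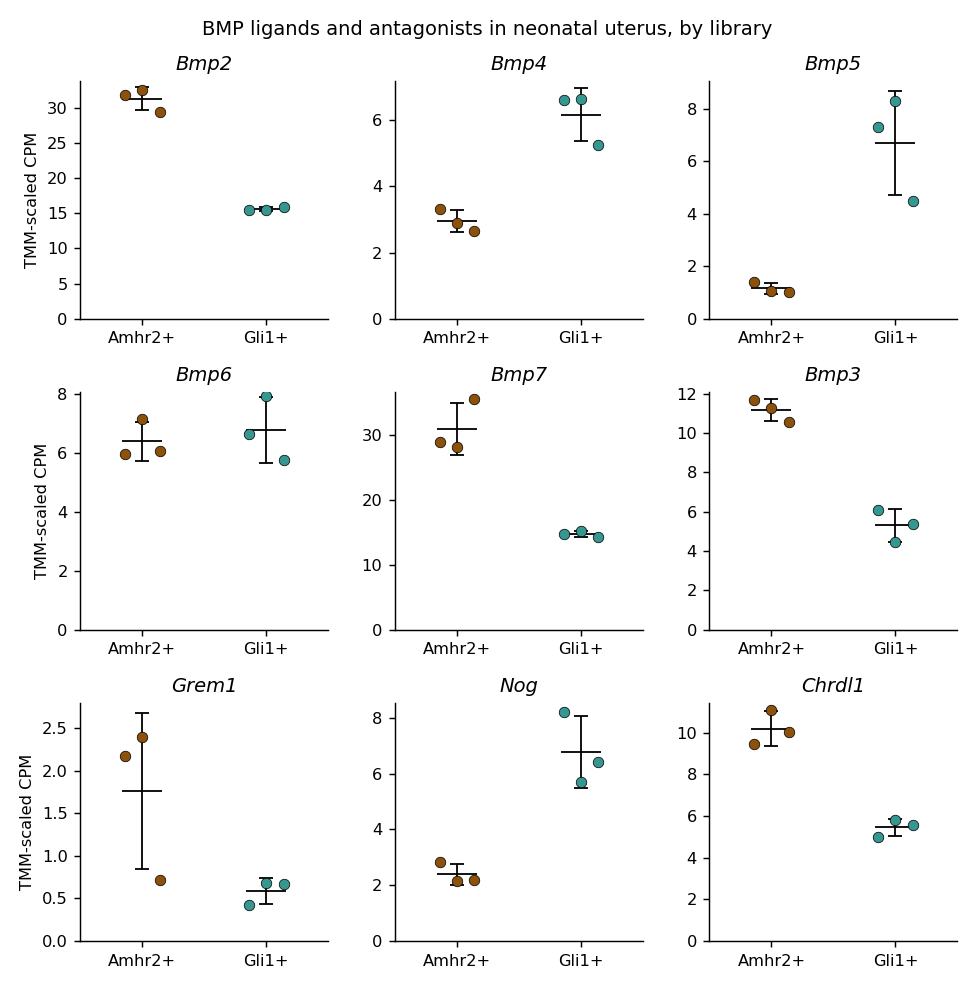
Level of each member in the 6 uterine libraries, as TMM-scaled CPM on axes that start at 0, for Amhr2+ and Gli1+ cells. Points are libraries, horizontal bars are means and error bars are SD of 3 libraries. Bmp2 and Bmp7 stand at 28.2 CPM or more in every Amhr2+ library and at 15.9 or less in every Gli1+ library, while Bmp5 and Nog are higher in Gli1+ cells.

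Per kilobase, Bmp2 had the highest mean share of the uterine ligands, with 41.5% (SD 2.65, n = 3) in Amhr2+ cells and 29.5% (SD 2.74) in Gli1+ cells. Bmp7 followed with 36.2% (SD 4.26) and 24.7% (SD 1.21). In Amhr2+ cells the Bmp2 and Bmp7 shares overlapped, at 38.5 to 43.4% and 33.3 to 41.1%, and Bmp7 was ahead in replicate 3. Bmp4 supplied 6.18% (SD 0.770) and 18.3% (SD 1.14). The antagonists stood at 0.158 (SD 0.0179) of the ligand level in Amhr2+ cells and 0.333 (SD 0.0494) in Gli1+ cells, ranges that did not overlap. The size of that gap depends on the length scaling, since without it the ratio in Gli1+ cells was 0.232 (SD 0.0202). Other cell markers differed between the populations too. The epithelial list, with all 8 genes found, summed to 71.7 to 73.7 CPM in Amhr2+ and 31.9 to 43.4 CPM in Gli1+ cells. The smooth muscle list summed to 1121 to 1768 CPM in Amhr2+ and 2119 to 2339 CPM in Gli1+ cells, though Des was level at 189 CPM (SD 8.02) and 192 CPM (SD 9.94). The mesenchyme list, mostly collagen transcripts, summed to 26651 to 28498 CPM in Amhr2+ and 54900 to 61836 CPM in Gli1+ cells. Pdgfra of that list was level, at 579 CPM (SD 42.5) and 564 CPM (SD 40.4). The part of these lists in the differences between the populations was not tested.

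The rest of the pathway was read from a list of 48 genes, of which 41 were tested in each table. At E14.5, 2 of these were higher and 6 lower in females, beside 6.28% of all genes called. Msx2, a homeobox target of BMP signalling, averaged 0.400 CPM (SD 0.250, n = 3) in females and 4.99 CPM (SD 1.18) in males, a log2 fold change of -3.64 (adjusted p = 1.55e-05). Sostdc1, a secreted antagonist of BMP and Wnt signals, was lower in females (log2 fold change -1.90, adjusted p = 5.16e-05). Msx1 was lower too (log2 fold change -0.94, adjusted p = 0.0158), a call lost without any 1 of the E14.5 female libraries, E14.5 male replicate 2 or E14.5 male replicate 3, with adjusted p from 0.0507 to 0.0851. The signal transducer Smad5 (0.61, adjusted p = 0.000205) and the co-receptor endoglin, Eng (0.57, adjusted p = 0.000123), were higher in females.

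At E16.5, 7 pathway genes were higher and 7 lower in females, beside 27.3% of all genes called. Without E16.5 female replicate 1 or replicate 2, 9 passed, while the calls over all genes went from 4883 to 3854 and 3618. Msx1 (log2 fold change -0.83, adjusted p = 0.00118) and Tll1, a protease of the family that cleaves chordin (-0.80, adjusted p = 0.000122), were lower in females. Bmper, an extracellular modulator that binds BMPs, was higher in females at 0.71 (adjusted p = 0.00666), as was the pseudoreceptor Bambi at 0.37 (adjusted p = 0.00437). The ligand Gdf7 was higher at 0.45 (adjusted p = 0.0410), a call lost without E14.5 female replicate 1, E14.5 male replicate 3, E16.5 female replicate 1 or 2, or E16.5 male replicate 3 (adjusted p 0.05002 to 0.244), with library-size scaling (0.0510) and with only the 6 libraries compared (0.0685). The Id genes, which are common targets, had log2 fold changes of 0.38 for Id1, -0.09 for Id2, 0.23 for Id3 and 0.43 for Id4, with adjusted p of 0.642, 0.581, 0.538 and 0.188.

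With age, 11 pathway genes rose and 11 fell in females, beside 39.6% of all genes called, and 8 rose and 12 fell in males, beside 23.3%. Msx1 rose by 2.45 in females (adjusted p = 2.00e-07) and by 2.34 in males (adjusted p = 1.29e-07), and Tll1 by 2.30 (adjusted p = 8.32e-09) and 2.36 (adjusted p = 5.55e-09). Sostdc1 rose by 1.66 in females (adjusted p = 2.11e-05). Smad5 fell by 0.84 (adjusted p = 8.91e-07) and the receptor Acvr2b by 0.84 (adjusted p = 3.93e-05) in females. The ligand Gdf6 fell by 0.61 in females (adjusted p = 0.00206) and by 0.94 in males (adjusted p = 7.32e-05). Msx2 fell by 3.51 in males (adjusted p = 9.23e-07), from 4.99 to 0.432 CPM. Gdf5 fell by 1.54 in males (adjusted p = 0.0249), from 0.544 to 0.208 CPM, and that call was lost without E14.5 male replicate 2 or 3 or E16.5 male replicate 2 or 3 (adjusted p 0.0507 to 0.115), with a replicate block (0.0592) and with only the 6 libraries compared (0.0660).

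The sex difference itself changed with age for 4 of the 41 pathway genes, 3 upward and 1 downward, a share at the background of 10% of all genes. The count was 9 without E14.5 male replicate 1, 7 without E16.5 male replicate 1 and 8 with replicate number as a block. Msx2 (3.52, adjusted p = 0.000534), Bmper (1.23, adjusted p = 0.00454) and Sostdc1 (1.14, adjusted p = 0.0151) shifted toward females. For Msx2 and Sostdc1, both lower in females at E14.5, the shift is a narrowing of that gap. Their female-over-male log2 fold changes at E16.5 were -0.11 (adjusted p = 0.873) and -0.76 (adjusted p = 0.00539). The Sostdc1 call was lost without E14.5 female replicate 1 (adjusted p = 0.0573).

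In the uterus, 5 pathway genes were higher and 11 lower in Amhr2+ cells, beside 23.9% of all genes called. Msx1 averaged 5.91 CPM (SD 1.86, n = 3) in Amhr2+ and 18.1 CPM (SD 1.76) in Gli1+ cells, a log2 fold change of -1.61 (adjusted p = 0.00132). The type I receptor Bmpr1b (-1.397, adjusted p = 0.000173) and Sostdc1 (-1.55, adjusted p = 0.00739) were lower in Amhr2+ cells as well. Smad5 was higher at 0.50 (adjusted p = 0.00392). Smad9 was higher at 0.44 (adjusted p = 0.0129), a call lost without Amhr2+ replicate 1 (adjusted p = 0.0533) or replicate 2 (adjusted p = 0.0503). Msx2 was higher at 1.05 (adjusted p = 0.0436), a call kept only when Gli1+ replicate 1 was the library left out, with adjusted p from 0.0840 to 0.125 in the other cases.

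Across the 12 fetal libraries, other genes followed single members closely. The likeness is Pearson's r of log2 CPM over 10456 genes with at least 10 CPM in their highest group, given as a description, since the libraries share 4 group means. Bmp4 was most like Adamts9 (r = 0.98), Wfdc1 (0.98) and Sdc3 (0.98). Chrdl1 was most like Tmem200c (0.99), Reps2 (0.99) and Fam20c (0.99). For Bmp2 the nearest were Daam2 (0.96), Pgf (0.92) and Hhipl1 (0.91), and for Bmp5 they were Nid2 (0.96), Lrrn3 (0.96) and Plxna4 (0.95). Bmp7 was most like As3mt (0.98), Srgap1 (0.98) and Cyfip2 (0.98), and Bmp6 most like Foxd2os (0.98), a transcript with a clone-based name (0.97) and Bcam (0.97). Among the members, Bmp4 ran with Bmp6 (r = 0.89) and against Bmp5 (r = -0.85), and Bmp7 ran against Chrdl1 (r = -0.96).

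Open chromatin was found at the start of every member, as it was at most genes. All 9 had a peak within 1 kb of an annotated transcript start, beside 89.1% of 14577 tested genes that matched the annotation. A peak lay on the start itself for 5 of the 9, all but Bmp3, Grem1, Nog and Chrdl1, beside 81.3% of genes. The members and their flanks of 20 kb held 41 peaks, from 8 at Bmp7, 7 at Bmp6 and 6 at Bmp5 and Bmp3 down to 2 at Chrdl1 and 1 at Grem1. These counts are not scaled to the length searched, which differs between genes. Per length, Nog held the most peaks, followed by Bmp3 and Bmp4, and Chrdl1 the fewest. At Bmp5 a peak covered 132 bases of the upstream window printed above, and the Bmp4 upstream window held no bases under a peak, its nearest peaks lying inside the gene. The widest Bmp4 peak, whose centre is printed above, spanned 428 bases, against a median peak width of 233.

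The 300-base windows centred on those 41 peaks were searched on both strands for exact letters. The letters GACCACCCA, a GLI motif, were in 0 of the 41 windows, beside 0.463% of 70999 such windows genome-wide. The letters GGCGCC, a SMAD1/5 motif, were in 2 of the 41, 1 of them at Grem1, and the other at Bmp7, beside 9.59%. TATAAA, the TATA box, was in 3 of the 41, beside 15.0%. The palindromic oestrogen receptor motif and the one shared by androgen and progesterone receptors were in 0 of the 41, beside 0.0549% and 0.0662%. None of these motifs occurred in the 3 printed sequences. The peak list has no column for sample or height, so accessibility could not be compared between sexes or ages.

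**Figure D5:**
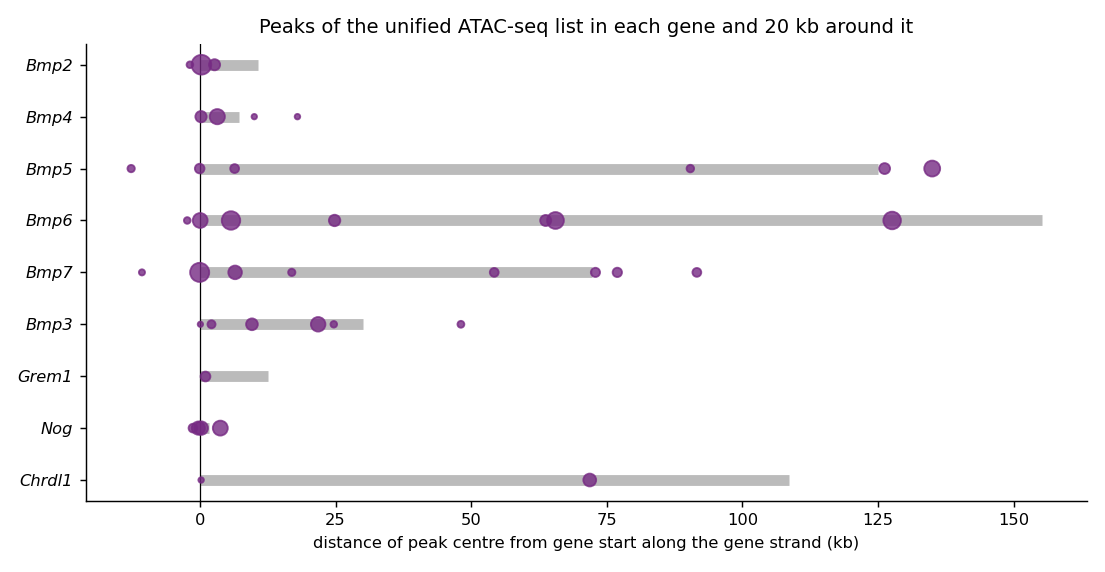
Position of the 41 ATAC-seq peaks within each member and 20 kb on either side, as distance from the transcript start in the direction of transcription, with the gene body as a grey bar and point area in proportion to peak width. Bmp7 holds 8 peaks and Grem1 1.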

How the data were processed

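The authors deposited unnormalised counts per gene in 2 tables, and each column was matched to its sample by title. Peak positions were deposited as 1 list. Per the submitters' processing notes, the tools included STAR 2.5, featureCounts of Subread 1.5.0-p1, Bowtie 1.2 and MACS2 2.1.1, with mm10. The annotation version and the strand setting of counting are not given in the sources used here, so overlapping and antisense genes are uncertain. Fetal libraries came from a non-stranded kit and uterine ones from a stranded kit, per the labels' protocols, and the tables were fitted separately.

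Differences were fitted in edgeR 4.0.16 (R 4.3.3) by quasi-likelihood, with filterByExpr by group, TMM, robust estimation and Benjamini-Hochberg adjustment over all genes of a table, called at 0.05. All 12 fetal libraries entered 1 model. The standard error is the log2 fold change over the root of F, and 95% intervals are approximate, from the normal distribution. CPM uses TMM-scaled library sizes, and CPM per kilobase uses exon-union lengths of GENCODE vM21. On simulated data with 17858 genes for the sex difference at E16.5, 99% of 2-fold and 100% of 4-fold changes were recovered, with 7 false calls. In the uterine run 100% of both were recovered, with 13 false calls. The simulation gave every gene the same spread, drew libraries independently and placed changes only in genes with a high average count. It cannot show how sparsely counted genes or the replicate spread of the real libraries affect the calls.

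Named genes were the 9 members and, from the list of 48 pathway genes, up to 3 called genes with the largest change in each direction per contrast. One pathway gene that this rule names is not reported here. The Id genes at E16.5, and the sex differences of Msx2 and Sostdc1 at that age, were added after their values were seen. Members and lists were chosen with earlier results of these data known. Replicates of a group differed by 3.61 to 89.1 chi-square units per degree of freedom, more than sampling noise gives. Same-numbered E16.5 libraries of the 2 sexes deviated together (r = 0.284, 0.115 and 0.396, from the data and not the labels). Different-numbered E16.5 pairs ran from -0.340 to 0.108. At E14.5 the same-numbered values were also positive but smaller (r = 0.0725, 0.0504 and 0.0508), and different-numbered pairs ran from -0.0434 to -0.00731. In the uterus the same-numbered values were 0.00176, 0.221 and 0.243, and different-numbered pairs ran from -0.245 to 0.128. Same-numbered libraries of the 2 ages within a sex ran from -0.0813 to 0.0397. Alternatives were library-size scaling, DESeq2 1.42.0, no low-count filter, a replicate block, only the 6 libraries compared, and leaving out each library. RefSeq promoter entries were matched for 4 of the 9 members (Bmp4, Bmp5, Bmp6 and Grem1).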

Additional observations from a re-analysis of the deposited data

Results flagged for a closer look

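The sex difference changed between E14.5 and E16.5 for 7 of the 8 members tested in the mesonephros, by the interaction term of the edgeR model (adjusted p below 0.05). Values are the female-over-male log2 fold change at E16.5 minus that at E14.5. For Bmp4 the shift was -1.73, for Bmp3 -1.09 and for Bmp6 -1.08, and the antagonist Chrdl1 shifted by -2.10, all toward males. For Bmp7 the shift was 1.19, for Bmp2 1.00 and for Bmp5 0.81, all toward females. Bmp2 was lower in females at both ages, so its positive value is a narrowing of that gap. Nog was the exception, at 0.20 (adjusted p = 0.709).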

How the results depend on the processing

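Of the recomputed member values, 740 kept their direction and their side of the threshold, 7 lost a call, 9 gained one and 6 turned in sign, none of the 6 being a call. The turned signs were Bmp7 (0.0943 without E14.5 male replicate 1, lowest -0.111) and Bmp5 (-0.0045 without E14.5 male replicate 3, highest 0.184) in the sex difference at E14.5, and Bmp5 in the age difference in males (0.0336 without E14.5 male replicate 1, 0.0019 without E16.5 male replicate 3, lowest -0.155). Nog turned in the interaction (-0.0305 without E14.5 male replicate 2, highest 0.368) and Bmp6 in the uterus (0.0443 without Gli1+ replicate 2, lowest -0.188). The number of members called at E14.5 was 3 with the replicate block, where Chrdl1 was added. The block changed no other member's call. Without length correction Bmp4 took 26.3% in E14.5 females, where Bmp7 led instead with 28.3%. Other leading shares were 30.7% (Bmp4, E14.5 males), 32.2% (Bmp5, E16.5 females), 50.5% (Bmp4, E16.5 males) and 37.3% (Bmp2, Amhr2+ cells). The antagonist to ligand ratios were then 0.0621 and 0.0643 in E14.5 females and males, and 0.0849 and 0.187 in E16.5 females and males. In uterine Gli1+ cells the ratio was 0.232. With the longest transcript, Bmp4 took 39.2% in E14.5 females, and the ratios were 0.106 there, 0.161 in E16.5 males and 0.193 in Amhr2+ cells. A peak lay on the start of 5 members, and 5 had a peak of at least median width near it. Over all genes, leaving out E16.5 male replicate 1 moved the interaction from 1790 to 2687 calls. The sex difference at E14.5 moved from 1121 to 553 without E14.5 male replicate 3, and the uterine count from 3866 to 1949 without Amhr2+ replicate 1. Pathway genes with a changed sex difference numbered 7 by DESeq2 against 4. Scaling by library size alone turned the split of all calls from 3746 up and 3321 down to 3131 and 3923 with age in females, from 2340 and 1827 to 1847 and 2641 in males, and from 1642 and 2224 to 2849 and 1640 in the uterus. Grem1 (3 to 16 fetal counts) is limited by depth.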
